A study of Rattus norvegicus with 12 samples.

Results

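The 10 genes described here encode the enzymes that dispose of reactive oxygen species and keep glutathione in supply: the superoxide dismutases Sod1, Sod2 and Sod3, the peroxide-removing enzymes Cat, Gpx1 and Gpx3, both subunits of glutamate-cysteine ligase (Gclc and Gclm), and the inducible enzymes Hmox1 and Nqo1. They were chosen by name as the core antioxidant defence enzymes, with earlier results of these data known. All 10 were found, each as 1 feature with an NM accession, among the 9621 named genes of the array. They were measured in total RNA from whole lung of Sprague-Dawley rat pups on postnatal days 4, 10 and 21. Growth of the tested pups had been restricted before birth with a low protein diet (intrauterine growth restriction, IUGR), and the other pups were controls. The groups were IUGR day 4, control day 4, IUGR day 10, control day 10, IUGR day 21 and control day 21, with 2 one-colour arrays each. Each array held RNA pooled from 2 or 3 pups, out of 14 IUGR and 15 control pups in all. The pups behind each pool and their litters are not given in the labels, so p-values measure the spread between pools, which may share litters, and the number of arrays limits the precision.

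Superoxide leaks from the respiratory chain and is made on purpose by NADPH oxidases. Superoxide dismutases turn it into hydrogen peroxide, which catalase breaks down directly and the glutathione peroxidases reduce at the expense of glutathione. Glutamate-cysteine ligase catalyses the limiting step of glutathione synthesis, and its subunit genes belong, with Hmox1 and Nqo1, to the genes that the transcription factor NRF2 (Nfe2l2) switches on through antioxidant response elements. In the mammalian lung the antioxidant enzymes are known to rise late in gestation, ahead of the first breath, and air breathing after birth keeps the tissue exposed to oxygen while the alveoli form.

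None of the 10 enzymes differed between IUGR and control lungs past an adjusted p of 0.05 at day 4, at day 10, on average over both days or at day 21. Over days 4 and 10 the widest differences were in Gclm and Sod2 at day 4 and in Gclc at day 10, at log2 differences of -0.26, 0.23 and 0.28. At day 21, with 3 arrays, they reached -0.31 in Gclm and -0.29 in Hmox1. Between the ages, Gpx1, the main cytosolic glutathione peroxidase, fell between day 4 and day 10 in both diets. Sod2 and Nqo1 fell in IUGR lungs and were lower without passing in controls, and the difference between diets did not pass. Each of these calls was lost without at least 1 of the arrays, as given below. Differences were tested with limma in 1 fit of the 8 arrays of days 4 and 10, with Benjamini-Hochberg adjustment over all 26208 features.

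The 250 bases before the annotated start are shown for Gclm, Sod2 and Gpx1, whose differences between diets (Gclm and Sod2 at day 4) and between ages (Gpx1 and Sod2) are described below. The sequences are those of RefSeq for assembly GRCr8, at chr2:213031885-213032134 on the plus strand for Gclm, chr1:50050169-50050418 on the minus strand for Sod2 and chr8:117905212-117905461 on the plus strand for Gpx1. Capitals mark matches on either strand to TGACNNNGC, the core of the antioxidant response element that NRF2 binds with small MAF proteins, and to GGGCGG, the GC box. The motifs do not overlap in these stretches.
Gclm: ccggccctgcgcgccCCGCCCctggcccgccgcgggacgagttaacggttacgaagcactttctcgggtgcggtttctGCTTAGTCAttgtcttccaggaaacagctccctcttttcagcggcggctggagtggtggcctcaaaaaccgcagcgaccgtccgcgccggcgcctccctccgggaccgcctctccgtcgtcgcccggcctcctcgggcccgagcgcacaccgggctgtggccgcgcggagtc
Sod2: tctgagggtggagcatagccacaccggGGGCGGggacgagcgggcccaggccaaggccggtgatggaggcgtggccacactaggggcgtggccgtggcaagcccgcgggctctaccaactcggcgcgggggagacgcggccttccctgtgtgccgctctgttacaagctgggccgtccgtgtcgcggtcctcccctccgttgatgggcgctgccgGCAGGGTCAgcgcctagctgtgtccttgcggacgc
Gpx1: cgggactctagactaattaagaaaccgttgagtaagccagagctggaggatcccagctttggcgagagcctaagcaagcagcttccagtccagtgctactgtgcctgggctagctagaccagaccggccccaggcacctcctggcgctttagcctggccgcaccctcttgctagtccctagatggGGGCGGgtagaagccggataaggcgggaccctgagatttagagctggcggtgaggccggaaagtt
Promoters of 8 of the 10 genes were in the RefSeq table, with Sod3 and Hmox1 the others. In a window of 300 bases, 250 before and 50 after the start, TGACNNNGC was found in 2 of the 8, 172 bases before the start of Gclm and 35 bases before that of Sod2. The same window held it in 12.1% of all 33469 promoters. GGGCGG was found in 7 of the 8 (Sod1, Sod2, Gpx1, Gpx3, Gclc, Gclm and Nqo1), against 33.1% of all promoters. A match describes the letters in this window. Whether the matches are bound, and their part in the values, was not tested.

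Levels below are log2 intensity and differences are log2 differences. They are comparable between arrays for 1 gene but not between genes, because each gene has its own probes. The 8 arrays of days 4 and 10 shared a scale, with a median intensity of 411 to 418. The 3 usable arrays of day 21 had been normalised apart, with a median of 270.1 to 278, so day 21 levels are not set against the earlier days, where age and processing cannot be told apart. The second control array of day 21 did not follow the rest and was left out: over the NM features its correlation with the days 4 and 10 average was 0.0900, and that of the other 3 arrays was 0.946 to 0.948. Lung epithelium was plain in the RNA: 9 of 10 markers were measured, and Sftpc, the surfactant protein C gene of alveolar type 2 cells, lay between 15.31 and 15.48 on all 8 arrays. Markers of 2 other tissues varied between arrays. The summed intensity of 8 measured heart muscle genes (12 listed) was 25928 and 73890 on the IUGR arrays of day 4, against 34809 and 27768 in controls, and 13929 and 37604 on the IUGR arrays of day 10, against 8683 and 8501 in controls. For 8 measured genes of brown and white fat (12 listed) the day 4 sums were 4545 and 20719 in IUGR lungs, against 4938 and 4838 in controls. Those of day 10 were 8634 and 30358 in IUGR lungs, against 3125 and 4040.5 in controls. No array value was 0. The second IUGR array stood high in both lists at both days, and results are given without these arrays where that changed a call. The first IUGR array of day 10 also lay above both controls of its day in both lists. In whole tissue, fewer cells of a type and less RNA per cell cannot be told apart.

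**Figure D1:**
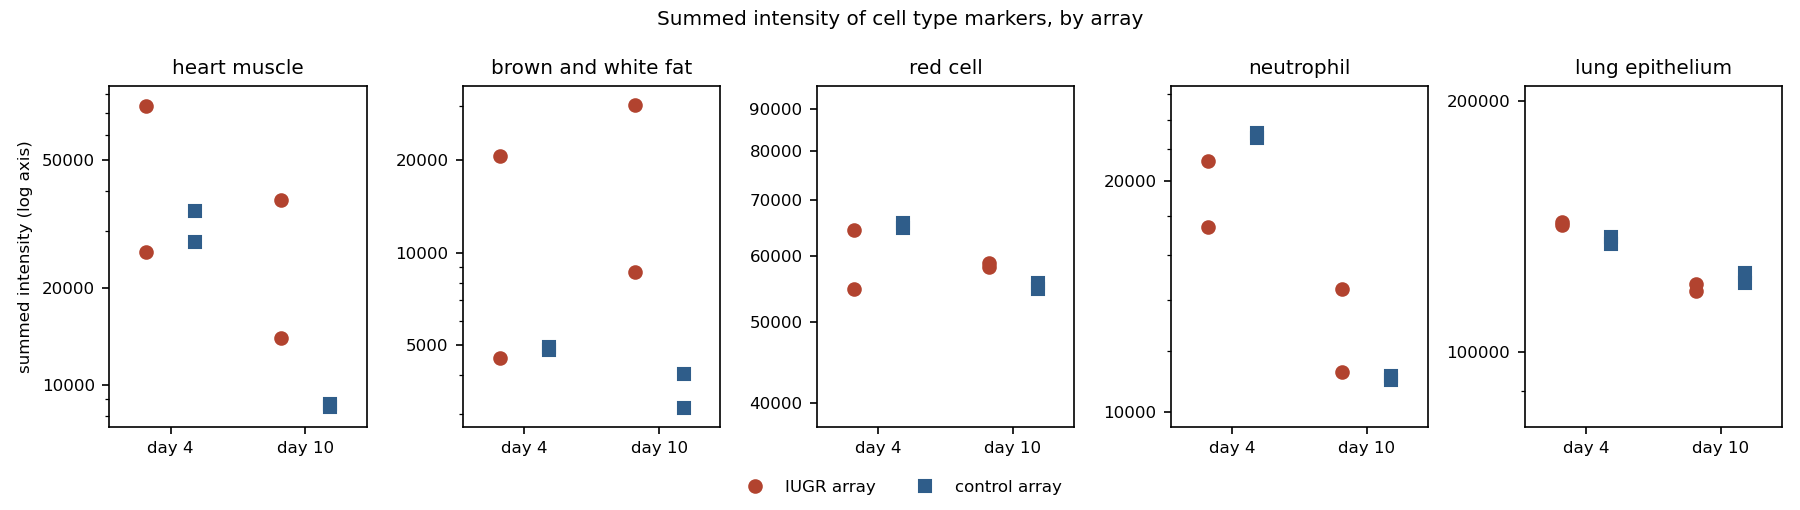
Summed intensity (log axis) of the markers of heart muscle (8 genes), brown and white fat (8), red cells (8), neutrophils (7) and lung epithelium (9) on each array of days 4 and 10, with IUGR arrays as circles and control arrays as squares. One IUGR array of each day stands high in heart and fat genes, with fat sums of 20719 and 30358, while lung epithelium sums are lower at day 10, 118513 to 124479, than at day 4, 134718 to 143379.

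**Figure D2:**
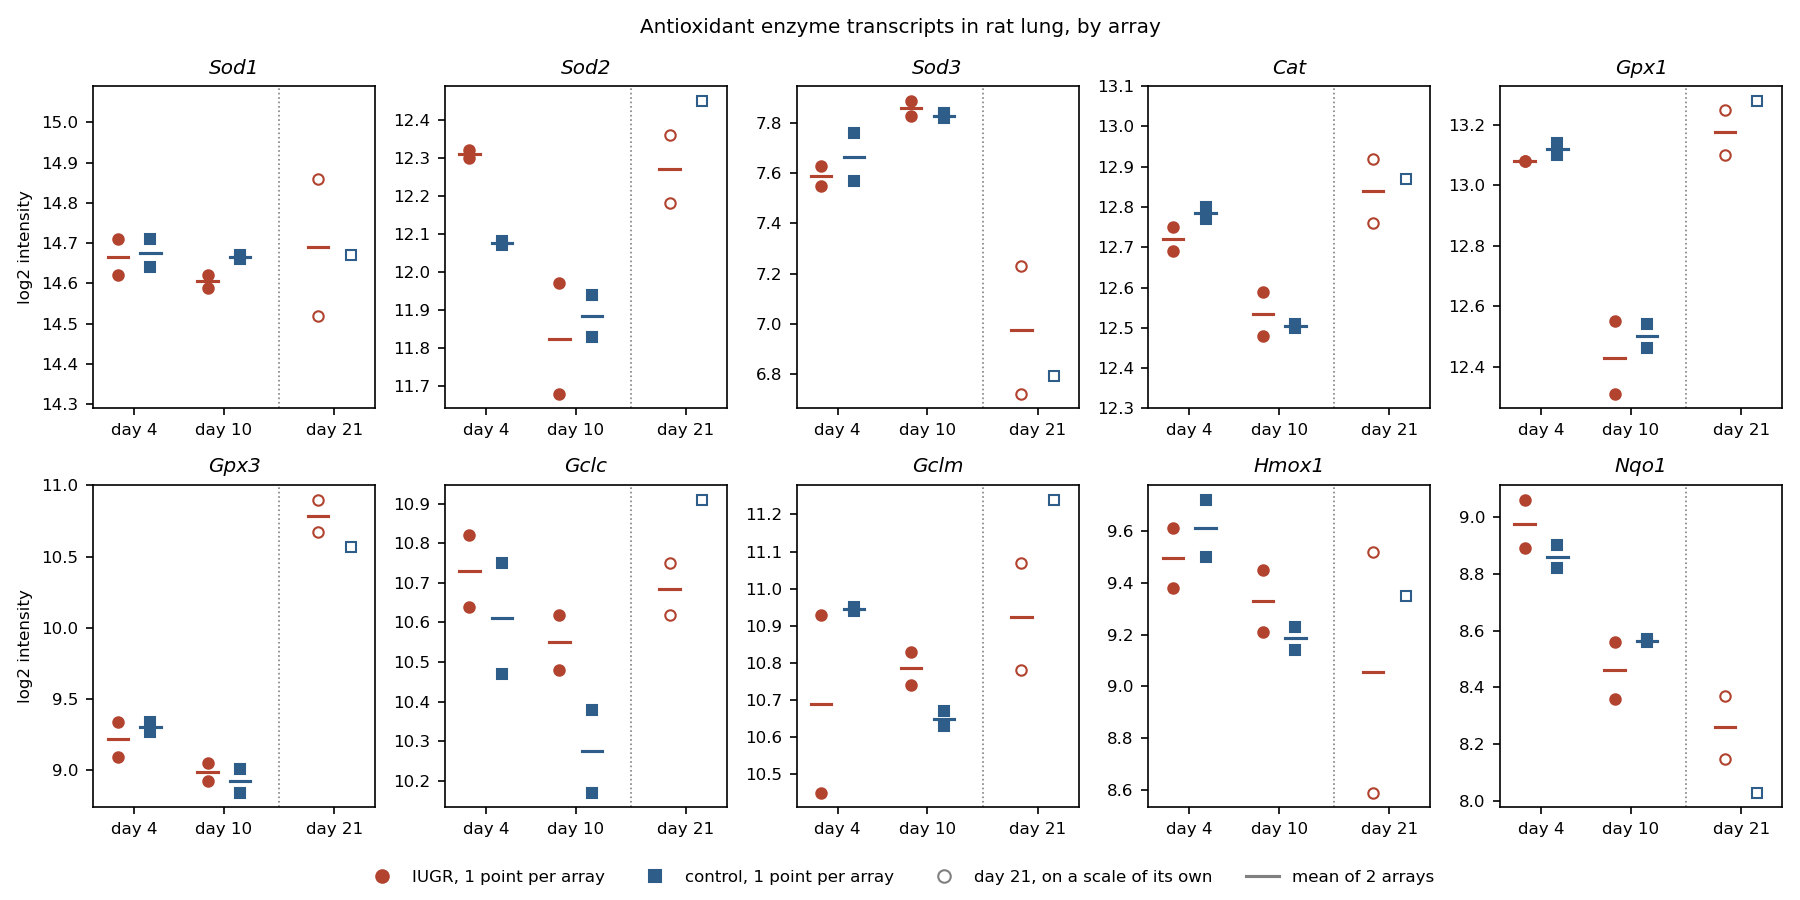
Log2 intensity of each enzyme on each array, by day, with IUGR (circles) left of control (squares) and a line at the mean of 2 arrays; open symbols mark day 21, which has a scale of its own. Gpx1 lies between 13.08 and 13.14 at day 4 and between 12.31 and 12.55 at day 10, while Sod1 stays between 14.59 and 14.71 on all 8 arrays of these days.

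Among the superoxide dismutases, Sod1, the copper-zinc enzyme of the cytosol, measured 14.71 and 14.62 on the IUGR arrays of day 4, against 14.71 and 14.64 on the control arrays. At day 10 the IUGR arrays gave 14.59 and 14.62 and the controls 14.67 and 14.66. It was among the brightest features of the array, with 99.6% of features dimmer, and its IUGR arrays lay below both controls at day 10. The difference was -0.01 ± 0.08 at day 4 and -0.06 ± 0.08 at day 10 (SE, n = 2 arrays per group). Its 95% intervals ran from -0.20 to 0.17 at day 4 and from -0.25 to 0.12 at day 10, the narrowest of the 10 genes.

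Sod2, the manganese enzyme of mitochondria, measured 12.30 and 12.32 in IUGR lungs at day 4, against 12.08 and 12.07 in controls. At day 10 Sod2 stood at 11.68 and 11.97 with IUGR and at 11.83 and 11.94 in controls. Both IUGR arrays of day 4 lay above both controls, and at day 10 they lay on either side of the controls. The day 4 difference was 0.23 ± 0.11, a fold of 1.17 (limma, unadjusted p = 0.0679, adjusted p = 0.545), with an interval from -0.02 to 0.48. At day 10 it was -0.06 ± 0.11, and the change of the IUGR effect between these days, -0.29 ± 0.15, had an adjusted p of 0.727.

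Sod3, the secreted enzyme that is bound to the matrix of airways and vessels, measured 7.63 and 7.55 in IUGR lungs at day 4, against 7.76 and 7.57 in controls. Its levels at day 10 were 7.83 and 7.89 in IUGR lungs and 7.82 and 7.84 in controls. The diets overlapped at both days. It was dim here, with only 26.4% of features dimmer, and its diet differences were -0.07 ± 0.09 and 0.03 ± 0.09.

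Of the peroxide-removing enzymes, Cat, the peroxisomal catalase, measured 12.75 and 12.69 in IUGR lungs at day 4, against 12.80 and 12.77 in controls. At day 10 its values were 12.48 and 12.59 in IUGR lungs and 12.51 and 12.50 in controls. The IUGR arrays lay just below the controls at day 4 and on either side of them at day 10, with differences of -0.06 ± 0.08 and 0.03 ± 0.08. Gpx1, the cytosolic selenoenzyme that reduces hydrogen peroxide with glutathione, measured 13.08 on both IUGR arrays of day 4, against 13.10 and 13.14 in controls. Day 10 gave 12.31 and 12.55 in IUGR lungs and 12.54 and 12.46 in controls. Its diet differences of -0.04 ± 0.10 and -0.07 ± 0.10 were small beside its fall with age below.

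Gpx3, the peroxidase that is secreted into plasma and lining fluid, measured 9.09 and 9.34 in IUGR lungs at day 4, against 9.27 and 9.34 in controls. By day 10 it measured 9.05 and 8.92 in IUGR lungs and 9.01 and 8.84 in controls. The diets overlapped at both days, and the differences were -0.09 ± 0.11 and 0.06 ± 0.11.

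Gclc, the catalytic subunit of glutamate-cysteine ligase, measured 10.82 and 10.64 in IUGR lungs at day 4, against 10.75 and 10.47 in controls. The IUGR arrays of day 10 gave 10.48 and 10.62, against 10.17 and 10.38 on the control arrays. Both IUGR arrays of day 10 lay above both controls, and the day 4 arrays overlapped. The day 10 difference was 0.28 ± 0.13, a fold of 1.21 (limma, unadjusted p = 0.0671, adjusted p = 0.654), with an interval from -0.02 to 0.58. Averaged over both days the difference was 0.20 ± 0.09 (adjusted p = 0.513), the widest average among the 10 enzymes.

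Gclm, the modifier subunit that raises the enzyme's affinity for glutamate, measured 10.93 and 10.45 in IUGR lungs at day 4, against 10.95 and 10.94 in controls. For day 10 the values were 10.83 and 10.74 in IUGR lungs, against 10.63 and 10.67 in controls. The second IUGR array of day 4 stood alone below the other 7 arrays, the first lay just under the controls, and at day 10 both IUGR arrays lay above both controls. The differences were -0.26 ± 0.14 at day 4 (limma, adjusted p = 0.599, interval -0.59 to 0.08) and 0.13 ± 0.14 at day 10 (adjusted p = 0.886, interval -0.20 to 0.47). The day 4 value rested on that array: without it the difference was -0.02, and without the other IUGR array it was -0.50 with an adjusted p of 0.0440, in a range of 0.0440 to 0.972 over 16 alternatives. The same array was high in heart and fat genes and had the lowest red cell marker sum of the 4 arrays of day 4, 54745 beside 64451 on the other IUGR array and 65563 and 64722 in controls. The part of those cells in the Gclm value was not tested.

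Of the inducible enzymes, Hmox1, which breaks haem down to biliverdin, carbon monoxide and iron, measured 9.61 and 9.38 in IUGR lungs at day 4, against 9.72 and 9.50 in controls. IUGR lungs of day 10 had 9.45 and 9.21, against 9.14 and 9.23 in control lungs. The diets overlapped at both days, with differences of -0.12 ± 0.13 and 0.14 ± 0.13. Nqo1, a reductase that turns quinones into hydroquinones, measured 9.06 and 8.89 in IUGR lungs at day 4, against 8.90 and 8.82 in controls. On day 10 it had 8.36 and 8.56 in IUGR lungs and 8.56 and 8.57 in controls. Its IUGR arrays overlapped the controls at day 4 and lay below them at day 10. The differences were 0.11 ± 0.10 and -0.11 ± 0.10.

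Read as a group against diet at day 4, 0 of 10 enzymes passed the adjusted threshold (0% of all features) and 0 had an unadjusted p under 0.05 (9.59% of all features), or 1, Sod2, with a spread that depends on intensity. At day 10 the counts were again 0 of 10 (0% of all features) and 0 of 10 (7.99%). For the average over both days they were 0 (0%) and 0 (10.3%), and for the change of the IUGR effect between the days 0 (0%) and 0 (7.38%). IUGR and control arrays did not overlap for 4 of 10 enzymes at day 4, Sod2 above and Cat, Gpx1 and Gclm below, against 37.5% of all features. At day 10 they did not overlap for 4 of 10, Gclc and Gclm above and Sod1 and Nqo1 below, against 43.5%. These shares lie near the background. The median difference of the 10 was -0.05 at day 4 and 0.03 at day 10, beside 0.00 and -0.01 over all features. The median size of a difference was 0.10 at day 4, beside 0.10 over all features, and 0.06 at day 10, beside 0.09.

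**Figure D3:**
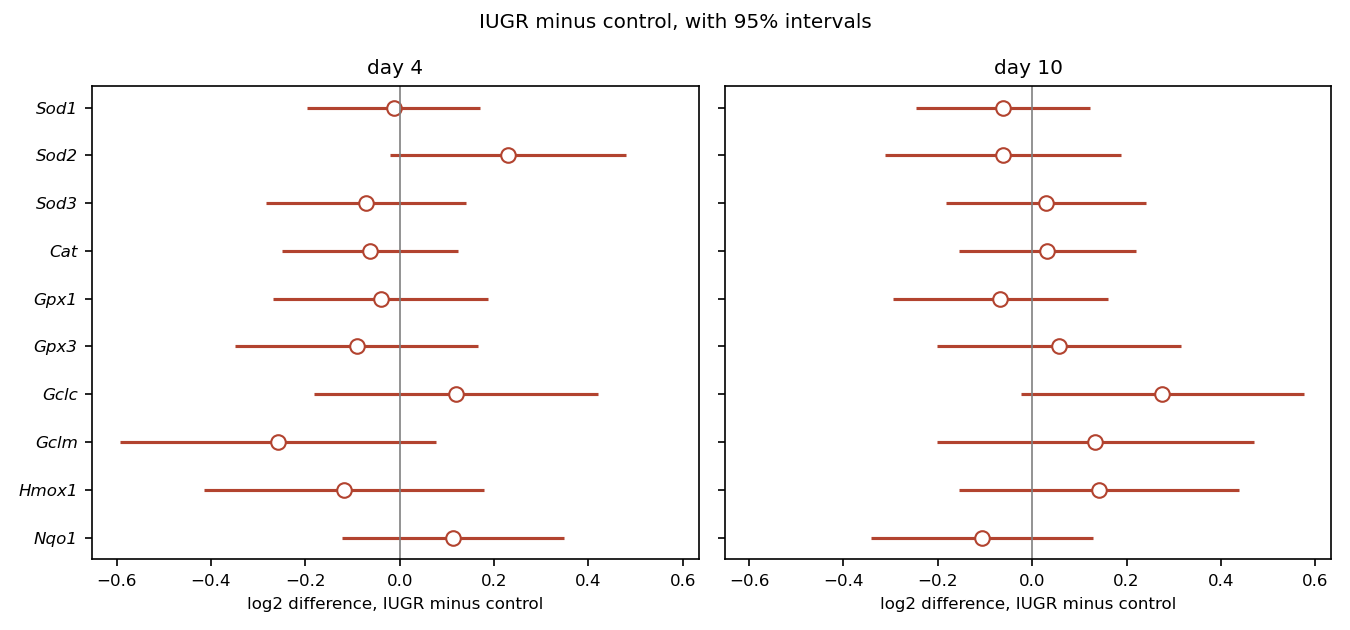
IUGR minus control in log2 units for each enzyme at day 4 and day 10, with 95% intervals from the limma fit; open circles did not pass an adjusted p of 0.05. Every interval includes 0, and the points range from -0.26 for Gclm at day 4 to 0.28 for Gclc at day 10.

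Day 21 set 2 IUGR arrays against 1 control array, in a limma fit of 10097 features whose 1 residual degree of freedom comes from the IUGR pair. Gpx3 measured 10.67 and 10.90 in IUGR lungs, against 10.57 in the control, and Nqo1 8.37 and 8.15 against 8.03. These were the 2 enzymes with both IUGR arrays above the control. Both IUGR arrays lay below the control for 4 enzymes. Gclm measured 11.07 and 10.78 against 11.24, Gclc 10.75 and 10.62 against 10.91, Sod2 12.36 and 12.18 against 12.45, and Gpx1 13.25 and 13.10 against 13.28. In the other 4 the control lay between the IUGR arrays. Hmox1 measured 9.52 and 8.59 against 9.35, Sod1 14.86 and 14.52 against 14.67, Sod3 7.23 and 6.72 against 6.79, and Cat 12.92 and 12.76 against 12.87. The second IUGR array was the lower of the pair in 9 of the 10 enzymes, all but Gpx3. It had the higher heart marker sum, 57532 against 8909 on the first IUGR array and 33328 on the control, whereas fat genes were high on the control, 27029 against 2558 and 3136 in IUGR lungs. Their part in these values was not tested.

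No enzyme passed at day 21: 0 of 10 had an adjusted p under 0.05 (0.0099% of all features, 1 feature) and 0 an unadjusted p under 0.05 (5.46%). The 6 of 10 enzymes whose arrays did not overlap compare with 63.4% of all features. The differences ran from -0.31 ± 0.25 for Gclm, interval -0.97 to 0.35, to 0.24 ± 0.24 for Nqo1, interval -0.39 to 0.86. For Hmox1 the interval reached from -1.41 to 0.83, the widest of the 10.

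The decline with age was widest in Gpx1. In IUGR lungs it averaged 12.43 ± 0.17 on day 10 and 13.08 ± 0.00143 on day 4 (SD, n = 2 each), for a difference of -0.65 ± 0.10 or a fold of 0.639 (limma, adjusted p = 0.00895). In controls it averaged 12.50 ± 0.05 on day 10 and 13.12 ± 0.03 on day 4, for a difference of -0.62 ± 0.10 or a fold of 0.651 (adjusted p = 0.0216). All 4 arrays of day 10 lay below all 4 of day 4. The control call was lost without any 1 of the 4 control arrays, with the difference between -0.66 and -0.58 and an adjusted p of 0.104 to 0.167 (0.00897 to 0.167 over all 15 alternatives). The IUGR call was lost without the first IUGR array of day 10, at -0.53 and an adjusted p of 0.0562 (0.00342 to 0.0562 over 15 alternatives).

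Sod2 and Nqo1 fell with age in IUGR lungs. Sod2 averaged 11.82 ± 0.21 on day 10 and 12.31 ± 0.01 on day 4 there, for a difference of -0.49 ± 0.11 (adjusted p = 0.0284), beside -0.19 ± 0.11 in controls (adjusted p = 0.358). Nqo1 averaged 8.46 ± 0.14 on day 10 and 8.98 ± 0.12 on day 4 in IUGR lungs, for a difference of -0.52 ± 0.10 (adjusted p = 0.0193), beside -0.30 ± 0.10 in controls (adjusted p = 0.144). That these genes passed in 1 diet does not show that the diets differed: the test of the difference itself gave -0.29 ± 0.15 for Sod2 (adjusted p = 0.727) and -0.22 ± 0.14 for Nqo1 (adjusted p = 0.792). The first IUGR array of day 10 was the lowest of the 8 for both genes, and without it the adjusted p was 0.132 for Sod2 and 0.112 for Nqo1 (ranges of 0.0170 to 0.132 and 0.0161 to 0.112 over 15 alternatives). The Sod2 call was also lost without the second IUGR array of day 4 (adjusted p = 0.0643) or without any 1 of the 4 control arrays (0.0534 to 0.0574). With both IUGR arrays that were high in heart and fat genes left out, the differences in IUGR lungs were -0.77 for Gpx1, -0.62 for Sod2 and -0.70 for Nqo1. Each is then 1 array of day 10 against 1 of day 4, the day 10 array being the lowest of the 8, so these values are no independent check. That day 10 array also lay above both controls of its day in heart and fat sums.

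**Figure D4:**
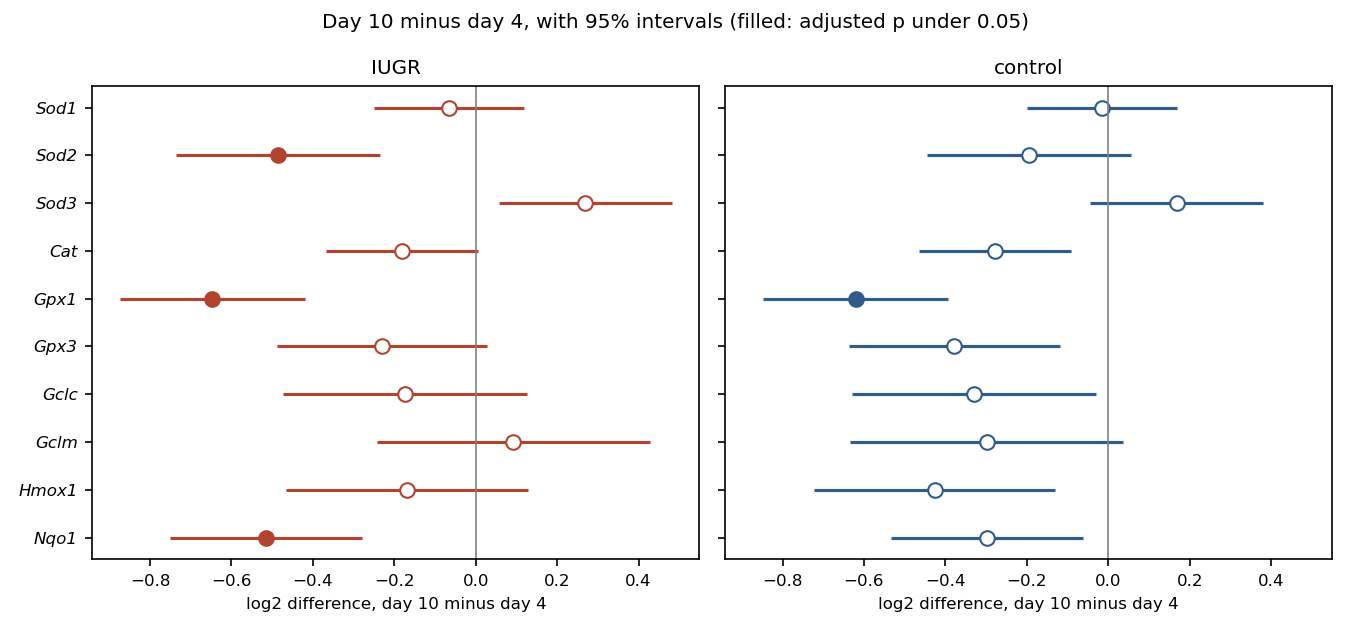
Day 10 minus day 4 in log2 units for each enzyme in IUGR lungs (left) and control lungs (right), with 95% intervals from the limma fit; filled circles passed an adjusted p of 0.05. Gpx1 lies at -0.65 and -0.62, Sod2 and Nqo1 are filled in IUGR lungs only (a difference between diets that did not pass its own test), and Sod3 is the one gene above 0 on both sides.

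In the other enzymes the change with age did not pass the adjusted threshold in either diet. Hmox1 differed by -0.17 ± 0.13 in IUGR lungs and -0.43 ± 0.13 in controls, Gpx3 by -0.23 ± 0.11 and -0.38 ± 0.11, Cat by -0.18 ± 0.08 and -0.28 ± 0.08, and Gclc by -0.17 ± 0.13 and -0.33 ± 0.13. Gclm differed by 0.09 ± 0.14 in IUGR lungs, where the low array of day 4 sets the level, and by -0.30 ± 0.14 in controls. Without the first IUGR array of day 4, Gclm passed in IUGR lungs at 0.33 with an adjusted p of 0.0496 (0.0496 to 0.919 over 15 alternatives). Sod3 was the exception in direction, 0.27 ± 0.09 in IUGR lungs (unadjusted p = 0.0191, adjusted p = 0.0935) and 0.17 ± 0.09 in controls, and Sod1 hardly moved, -0.07 ± 0.08 and -0.02 ± 0.08.

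Counted over the 10 enzymes, 3 passed in IUGR lungs, all lower at day 10, against 13% of all features in either direction, and 4 had an unadjusted p under 0.05, against 29.8%. In controls 1 of 10 passed, against 4.28%, and 6 had an unadjusted p under 0.05, against 21.1%. With both IUGR arrays that were high in heart and fat genes left out, 4 enzymes passed in controls, Gpx1, Gpx3, Gclm and Hmox1, since the spread is shared between groups. Day 10 arrays did not overlap day 4 arrays for 8 of 10 enzymes in IUGR lungs, 7 of them below, against 54.2% of all features, and for 9 of 10 in controls, 8 of them below, against 58%. The difference was below 0 for 8 of 10 enzymes in IUGR lungs and for 9 of 10 in controls, beside 55.2% and 52.9% of all features. Of the NM features alone, to which the enzymes belong, 61.3% and 58.1% were below 0. The median difference was -0.18 in IUGR lungs and -0.30 in controls, beside -0.03 and -0.01 over all features and -0.06 and -0.03 over NM features. The IUGR and control columns come from different arrays but share 1 estimate of the spread.

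Ordering the 4 group means of days 4 and 10 set most enzymes in the order of age. Both day 4 means lay above both day 10 means for 8 of the 10 enzymes, and below them only for Sod3. No share over all features was set beside this count, so it does not show whether the enzymes differ from other features. In Sod1, Gclc and Hmox1, which are among the 8, the lower day 4 group and the higher day 10 group overlapped. The step between the ages there did not exceed the spread of the arrays. For Sod1 it lay between means of 14.6665 in IUGR day 4 and 14.6632 in control day 10. Gclm had no such order, with control day 4 at 10.95, IUGR day 10 at 10.78, IUGR day 4 at 10.69 and control day 10 at 10.65, where only the highest group stood clear of its neighbour. Gpx1 ran from control day 4 over IUGR day 4 and control day 10 to IUGR day 10, and only the day 10 groups overlapped. In Hmox1 every neighbouring pair of groups overlapped, so no step of its order exceeds the spread of its arrays.

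Markers of several cell types were lower at day 10 as well. Over all features, 55.2% were lower at day 10 in IUGR lungs and 52.9% in controls, and 13% and 4.28% passed. Of 9 measured lung epithelium genes (10 listed), 8 were lower at day 10 in IUGR lungs and 7 in controls, with medians of -0.27 and -0.21, and 3 and 1 of them passed. Their summed intensity was 120944 and 118513 at day 10 and 142244 and 143379 at day 4 in IUGR lungs, and 124479 and 121055 at day 10 and 134718 and 137676 at day 4 in controls, with no overlap between the days. All 8 heart muscle genes were lower at day 10 in both diets, with medians of -0.79 in IUGR lungs and -1.45 in controls, and 0 and 1 of them passed. Those of fat had medians of 0.17 and 0.00, and none passed. Of 8 measured red cell genes (14 listed), 6 were lower at day 10 in IUGR lungs and 8 in controls, with medians of -0.23 and -0.68, and 2 passed the test in each. Their summed intensity was 58844 and 58151 at day 10 and 64451 and 54745 at day 4 in IUGR lungs, and 54688 and 55562 at day 10 and 65563 and 64722 at day 4 in controls. Of 7 measured neutrophil genes (10 listed), 6 were lower at day 10 in IUGR lungs and 7 in controls, with medians of -0.58 and -0.91, and 4 and 3 of them passed. The 6 measured macrophage genes had medians of -0.32 and -0.06 with 3 and 1 passing lower. The 8 liver genes had medians of 0.07 and -0.02, with 1 and 0 passing higher. Red cells are rich in Cat, Gpx1 and Prdx2, and phagocytes carry the oxidant-producing NADPH oxidase. The part of these cells in the age differences of the enzymes was not tested.

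The enzymes were set beside 105 measured genes of 8 related groups (138 listed). In IUGR lungs 18 of the 105 passed between day 4 and day 10, 3 higher and 15 lower, and in controls 6 passed, 2 higher and 4 lower. These are 17.1% and 5.71% of the 105, beside 13% and 4.28% of all features, which is near the background. The same shares of all features stand beside the counts of each group below. The median difference over the 105 was -0.14 in IUGR lungs and -0.07 in controls. That a gene passed in 1 diet does not show that the diets differed. For the change of the IUGR effect between the days, 0 of the 105 passed. Among 21 glutathione enzymes, 5 passed in IUGR lungs and 1 in controls. Gpx4, the peroxidase that protects membrane lipids, fell in both diets, by 0.56 on the log2 scale in IUGR lungs and by 0.45 in controls, while Mgst1, a microsomal glutathione transferase, fell by 0.65 in IUGR lungs and measured -0.34 in controls (adjusted p = 0.0665). Hpgds, the haematopoietic prostaglandin D synthase, fell by 0.43 in IUGR lungs and measured -0.38 in controls (adjusted p = 0.0748). Gstm3, singled out after its values were seen as the 1 glutathione enzyme to pass higher, rose by 0.67 in IUGR lungs. In controls, where it did not pass, it measured 8.19 and 8.25 at day 10 and 7.79 and 7.94 at day 4. Of the 21 glutathione enzymes, 4 were higher at day 10 in IUGR lungs and 7 in controls.

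Among 17 thioredoxin and peroxiredoxin genes, 2 passed in IUGR lungs and 1 in controls, all lower. Prdx2, the abundant peroxiredoxin of red cells, fell by 0.43 in controls. In IUGR lungs it measured 13.85 and 13.82 at day 10 and 14.12 and 14.02 at day 4. Prdx4, the peroxiredoxin of the endoplasmic reticulum, fell by 0.46 in IUGR lungs and measured -0.37 in controls (limma, adjusted p = 0.0643). In the NADPH supply group of 7, Taldo1, the transaldolase of the pentose phosphate pathway, fell by 0.75 in IUGR lungs and by 0.46 in controls. Of 11 haem and iron genes, Hp, the haemoglobin scavenger haptoglobin, fell by 0.84 in IUGR lungs and by 0.79 in controls.

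Of 14 oxidant producing enzymes, 4 passed in IUGR lungs and 1 in controls, beside 13% and 4.28% of all features. Nox4, an NADPH oxidase that releases hydrogen peroxide, ran the other way from most of the enzymes. It measured 11.57 and 11.22 at day 10 and 10.38 and 10.22 at day 4 in IUGR lungs, and 11.41 and 11.40 at day 10 and 10.50 and 10.70 at day 4 in controls. It rose by 1.09 ± 0.13 in IUGR lungs (limma, adjusted p = 0.00461) and by 0.80 ± 0.13 in controls (adjusted p = 0.0237), and no day 10 array overlapped a day 4 array. The 3 others that passed in IUGR lungs were lower at day 10 and belong to the phagocyte oxidase. They were Cyba at -0.55 and, named after their values were seen, Ncf1 at -0.78 and Rac2 at -0.60. In controls Cyba measured -0.31 (limma, adjusted p = 0.262). Control lungs had Ncf1 at 8.74 and 8.92 at day 10 and at 8.93 and 8.96 at day 4. Rac2 was at 9.25 and 9.30 at day 10 and at 9.28 and 9.41 at day 4 there. Pex11a, a protein of peroxisome division, rose by 0.42 in IUGR lungs and by 0.63 in controls, the one gene of 13 peroxisome genes to pass. Of 8 metal binding and copper delivery genes, Selenow, a small selenoprotein, passed in IUGR lungs at -0.32 and measured -0.30 in controls (adjusted p = 0.0776). Of the NRF2 pathway regulators and other targets, 2 of 15 passed in IUGR lungs and 0 in controls, where 1 of the 15 had an unadjusted p under 0.05.

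**Figure D5:**
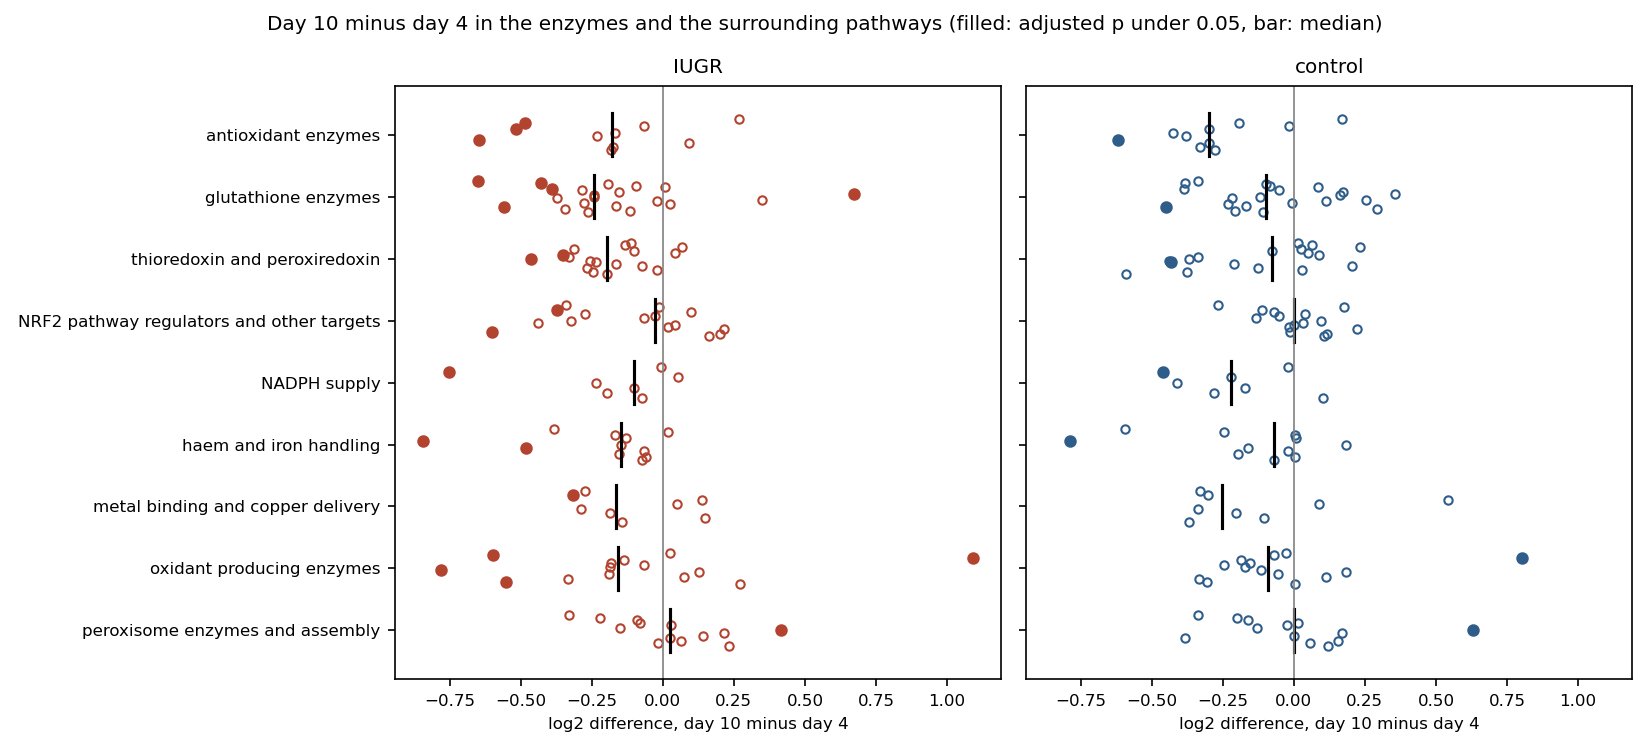
Day 10 minus day 4 in log2 units for the 10 antioxidant enzymes (top row) and the measured genes of 8 related groups, in IUGR lungs (left) and control lungs (right); filled points passed an adjusted p of 0.05 in limma and bars mark medians. The enzymes' medians of -0.18 and -0.30 lie left of 0, and Nox4 stands apart on the right at 1.09 and 0.80.

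Diet moved none of the 105 genes past the adjusted threshold at day 4, at day 10, on average or at day 21, and 8, 13, 12 and 3 of them had an unadjusted p under 0.05. Over all features the shares at that threshold were 9.59%, 7.99%, 10.3% and 5.46%. On average over days 4 and 10 the smallest p belonged to Maob, a hydrogen peroxide releasing monoamine oxidase of mitochondria, at -0.36 ± 0.07 (limma, unadjusted p = 0.00112, adjusted p = 0.349). It measured 11.75 and 11.59 in IUGR lungs at day 4, against 11.95 and 12.06 in controls. The day 10 IUGR arrays gave 11.89 and 11.71, against 12.24 and 12.14 in controls, so that the IUGR arrays lay below the controls at both days. At day 21 it went the other way, 12.31 and 11.85 in IUGR lungs, against 11.81 in the control. Selenop, the plasma carrier that delivers selenium to the glutathione peroxidases, measured -0.29 ± 0.09 (adjusted p = 0.407). It had 12.88 and 12.99 in IUGR lungs at day 4, against 13.11 and 12.95 in controls. At the later day it measured 13.24 and 12.91 in IUGR lungs, against 13.59 and 13.55 in controls. Its arrays overlapped at day 4 and stood apart at day 10, and at day 21 the IUGR arrays were above the control, 14.28 and 14.13 against 13.65. Of the NRF2 group, Keap1, the adaptor that marks NRF2 for degradation, measured -0.20 ± 0.08 on average (limma, adjusted p = 0.472). Its arrays overlapped at day 4, with 9.68 and 9.42 in IUGR lungs against 9.54 and 9.55 in controls. They stood apart at day 10, with 9.19 and 9.28 in IUGR lungs against 9.75 and 9.53 in controls. Sqstm1, which binds Keap1, measured -0.18 ± 0.06 on average (limma, adjusted p = 0.418). Sqstm1 too was above the control at day 21, at 12.29 and 12.25 in IUGR lungs, against 11.94.

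For each enzyme, the named genes with a similar log2 profile over the 8 arrays of days 4 and 10 were listed, among 9621 genes. Pearson's r was 0.991 between Gpx1 and both Kcnj10 and Btg3, 0.991 between Nqo1 and both Arpc1a and Rpl10a, and 0.987 between Cat and both Pim1 and Sae1. For Sod2 it was 0.983 with Smn1. Gclm was closest to Nfyb at 0.986, and Hmox1 to Emb at 0.981 and Cd52 at 0.963. Gclc was closest to Erich2 and Pla2g2a at 0.970, Gpx3 to Eif4a2 at 0.979, Sod3 to Kcnk9 at 0.974 and Sod1 to Kbtbd6 and Scaf1 at 0.972. Among the enzymes themselves r was 0.963 between Gpx1 and Cat, 0.927 between Nqo1 and Sod2, and -0.844 between Gpx1 and Sod3. These values describe 8 arrays of 2 ages, and all genes were measured on the same arrays. The other genes named were picked as the closest among 9621, so a high r follows in part from that choice.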

How the data were processed

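Total RNA of pooled whole rat lungs was hybridised, labelled with Cy3, to 12 one-colour NimbleGen arrays. The deposited table gives 1 linear intensity per feature and array, which the authors made with RMA, per the submitters' processing notes; its version, the background settings and the probe design are not given in the sources used here. Days 4 and 10 (8 arrays) shared a distribution, 3 arrays of day 21 had another, and control day 21 replicate 2 and the XM features of day 21 were left out because they did not follow the other arrays. Features were named by RefSeq accession without version through the rat table of assembly GRCr8 (9731 of 26208 matched 1 symbol).

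Values were taken to log2 with no further normalisation. In R 4.3.3, limma 3.58.1 (moderated linear models by lmFit and eBayes) fitted 1 mean per group over the 8 arrays of days 4 and 10 (4 residual degrees of freedom) and day 21 apart on 10097 NM features of 3 arrays. P-values were adjusted by Benjamini-Hochberg over all features, called under 0.05, with 95% intervals. Depth does not apply to arrays, and their number limits the precision. The enzymes and the gene lists were chosen with earlier results of these data known. Named genes are all 10 enzymes, the up to 3 genes of each related list with the smallest p in the averaged diet comparison and in the age comparison of controls, and the 2 most alike genes of each enzyme. A few genes that this rule takes are not reported here. Gstm3, Ncf1, Rac2 and the cell type markers named in the text stand outside it. Where a gene had several features, the one with the highest mean was used. Alternatives were quantile normalisation, median centring, the dimmest 30% of features left out, an intensity trend, a replicate block, NM features alone, each day alone, each array left out, the table as filed for day 21, and, chosen after seeing the data, both IUGR arrays high in heart and fat genes left out. The fits were tested on simulated data with known differences.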

Additional observations from a re-analysis of the deposited data

Results flagged for a closer look

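Gclm, the modifier subunit of glutamate-cysteine ligase, was flagged because its IUGR arrays lay below both controls at day 4 and above both at day 10. Over all features, IUGR and control arrays did not overlap for 37.5% at day 4 and 43.5% at day 10. The share of features on opposite sides at the 2 days was not counted, so the flag does not set Gclm apart from other features. The change of the IUGR effect between these days was 0.39 ± 0.20 (limma, unadjusted p = 0.0936, adjusted p = 0.726), so the difference did not pass its test. It ranged from 0.15 to 0.63 with 1 array left out at a time, and the ends came from the 2 IUGR arrays of day 4, which measured 10.93 and 10.45. The other 9 enzymes showed no such turn. Groups of 2 arrays are too small for a test of single outlying arrays.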

How the results depend on the processing

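With 2 arrays per group and 4 residual degrees of freedom (1 at day 21), only wide differences could pass, and litters shared between pools cannot be seen. Over 70 member differences and 984 alternative values, 920 were counted as unchanged, 12 lost a call, 5 gained one and 47 turned in direction. Day 21 with 1 IUGR array left out had no test, and the rule could only count it as unchanged. Some of those values did turn, as given below, and they are not among the 47. The turns were in differences that had not passed in the first place. No member was called for diet under quantile normalisation, median centring, the dimmest features left out (which removed Sod3 at days 4 and 10), the intensity trend, NM features alone, each day alone or the replicate block. The labels do not say that replicate numbers pair the arrays, and same-numbered arrays correlated at -0.23 to 0.19. The replicate block gave 729 features with age in controls in place of 1123 and changed no call of a member. The causes of the values below were not tested, except that NM features alone are fewer tests. Features called with 1 array left out numbered 0 to 644 at day 4, 0 to 2 at day 10, 0 to 166 on average, 0 to 152 for the change of the IUGR effect, 7 to 2264 for age in controls and 504 to 4259 for age in IUGR lungs (3405 with all). Members called then numbered 0 to 1 at day 4, 0 to 1 for age in controls and 0 to 4 for age in IUGR lungs. The intensity trend called 1 feature at day 4 and 62 at day 21. NM features alone gave 359 and 1152 for age in controls and IUGR lungs. At day 21, quantile normalisation, median centring and the table as filed each called 0. With both IUGR arrays high in heart and fat genes left out, 60 features were called at day 4, 29 on average, 11 for the change of the IUGR effect and 2997 for age in controls, with 4 members called there. The member differences that turned with 1 array left out had these ranges. At day 4 they were -0.054 to 0.030 for Sod1, -0.17 to 0.022 for Sod3, -0.21 to 0.029 for Gpx3, -0.022 to 0.26 for Gclc and -0.24 to 0.00085 for Hmox1. At day 10 they were -0.21 to 0.084 for Sod2, -8.27e-05 to 0.060 for Sod3, -0.022 to 0.087 for Cat, -0.19 to 0.054 for Gpx1 and -0.028 to 0.14 for Gpx3. On average they were -0.068 to 0.026 for Sod3, -0.043 to 0.012 for Cat, -0.11 to 0.0066 for Gpx1, -0.078 to 0.043 for Gpx3, -0.18 to 0.059 for Gclm, -0.049 to 0.072 for Hmox1 and -0.047 to 0.054 for Nqo1. The change of the IUGR effect was -0.15 to 0.094 for Gpx1, and age gave -0.051 to 0.020 for Sod1 in controls and -0.15 to 0.33 for Gclm in IUGR lungs. With both arrays high in heart and fat genes left out, the turned values were 0.030 for Sod1 and 0.00085 for Hmox1 at day 4, -8.27e-05 for Sod3 and -0.022 for Cat at day 10, 0.080 for Gclm and -0.0038 for Nqo1 on average, -0.0044 for Gclc in the change of the IUGR effect and -0.11 for Gclm with age in IUGR lungs. Sod1 at day 21 was -0.012 after quantile normalisation. With 1 of the 2 IUGR arrays of day 21 left out, Sod1 ranged from -0.15 to 0.19 and Sod3 from -0.072 to 0.44. Cat then ranged from -0.11 to 0.057 and Hmox1 from -0.76 to 0.17. With the second control array of day 21 kept as filed, the day 21 values were 0.20 for Sod2, -2.96 for Sod3, 0.77 for Cat, 1.09 for Gpx1, -0.072 for Gpx3, 0.96 for Gclm and -0.52 for Nqo1.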
